A study of Homo sapiens with 3 samples.

Results

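Metallothioneins, the zinc-sensing factor that drives them and a set of zinc transporters were followed in HaCaT cells, an immortalised human keratinocyte line, by RNA sequencing. The 10 genes were chosen by name, with earlier results of these data known. They were the metallothioneins MT2A, MT1E, MT1X, MT1F and MT1G and the transcription factor MTF1. The zinc exporter SLC30A1 and the zinc importers SLC39A6, SLC39A10 and SLC39A14 made up the rest. All 10 were found among the 58735 genes of the deposited count table, and 9 of them reached a level of 1 CPM (counts per 1000000 counts of the library) in at least 1 library. Wild-type cells were kept without particles (control), with carbon black at 25 µg/mL (CB) or with a particulate sample labelled S1650b at 50 µg/mL, for 24 h, and the particles were given in medium without serum. The labels do not state whether the control medium also lacked serum. Particle and dose differ together between CB and S1650b, so their parts cannot be told apart. Each group holds 1 library, so no difference below has a replicate check and no P value is given.

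Metallothioneins are small cysteine-rich proteins that bind zinc and copper and also bind toxic metals such as cadmium. When free zinc in the cell increases, MTF1 binds metal response elements in promoters and switches on metallothionein genes and SLC30A1, which carries zinc out of the cell across the plasma membrane. SLC39 proteins bring zinc into the cytosol, and transcription of SLC39A10 is known to be held down by MTF1 when zinc is plentiful. In the epidermis, zinc supply and metallothioneins are known for their part in keratinocyte growth and in protection from metals and oxidants.

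The libraries held 20417744 to 20946139 gene counts, and 14709 genes reached 1 CPM in at least 1 library. Levels below are CPM scaled by TMM (a factor that corrects for composition), and folds are ratios of these levels with exact 95% intervals that cover counting error only. PCR copies cannot be recognised without molecular identifiers, and reads are then not independent molecules. The words higher and lower in counts of genes mean a fold of 1.5 or more in that direction, with an interval that does not reach 1. In S1650b against control, folds also followed exon length and GC content. The median log2 fold went from −0.29 in the shortest eighth of genes to 0.48 in the longest, and from 0.60 in the eighth lowest in GC content to −0.43 in the highest. In CB against control these medians stayed between −0.10 and 0.05. The S1650b folds of members are therefore also given with both trends removed. Keratinocyte markers were abundant in each library, with a summed level of 15709 scaled CPM in control, 14326 in CB and 7682 in S1650b. In control, CB and S1650b, 11, 12 and 11 of 12 markers had counts. The largest parts of the control sum were KRT5 (7008, 5914 and 2222) and KRT14 (4069, 3912 and 1400). Of 11 markers tested in S1650b against control, 5 were lower, 1 higher (DSP) and 5 neither. Over all genes tested, 19.4% were lower and 22.0% higher. KRT17 went from 547 in control to 734 in S1650b, so the sum does not stand for each marker. The summed level of 6 fibroblast markers was 93.2, 30.3 and 12.9 scaled CPM, and that of 6 endothelial markers 58.4, 32.5 and 48.0. Most of the control fibroblast sum came from DCN (54.2, 7.61 and 1.84 in control, CB and S1650b) and COL3A1 (32.4, 16.9 and 3.72). COL1A1 was at 6.10, 5.27 and 6.98, so the fall of the sum was not shared by it. Most of the endothelial sum came from CDH5 (51.5, 25.0 and 41.2). COL1A2 and PDGFRA (fibroblast) and CLDN5 and ERG (endothelial) were at 0 in the control. These 4 had 5, 4, 10 and 9 counts in CB. Melanocyte markers summed to 8.36 to 10.1 scaled CPM with TYR and DCT at 0 in all 3 libraries. The part of these markers in the results was not tested. In a culture, fewer cells of a type and less RNA per cell cannot be told apart.

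Counted over the 9 tested members, CB against control had 1 higher (SLC39A10) and 2 lower (MT1X and SLC30A1), where 4.70% of all 14709 genes tested were higher and 10.7% lower. The median log2 fold of the members was −0.27, beside −0.0052 over all genes tested. That median was the value of MT1F, whose interval included 1. Because the members were chosen with earlier results of these data known, the difference between these medians is no independent result. S1650b against control had 2 higher (SLC30A1 and SLC39A10) and 3 lower (MT1E, MT1X and MT1F), where 22.0% of all genes were higher and 19.4% lower. The members' median was −0.041 and that of all genes −0.043. In S1650b against CB, 1 member was higher (SLC30A1) and 0 lower, with 26.3% of all genes higher and 20.6% lower. With calls this frequent among all genes, the counts in the S1650b comparisons are no result about the members. With libraries scaled by total counts, 29.2% were higher and 11.8% lower in S1650b against control, and 33.2% and 14.0% against CB. The authors' deposited FPKM gives counts per gene length, on a scale set for each library. By FPKM, called on the fold alone with no counting interval, 6.72% were higher and 9.72% lower in CB against control. Scale and call rule thus changed together there. The comparisons share libraries, so their counts are not independent.

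Metallothionein RNA was lower in both particle libraries than in the control. The 13 metallothionein genes together had 15055, 10727 and 12472 counts in control, CB and S1650b, which is 0.0729%, 0.0512% and 0.0611% of all counts. Their summed level was 1.43-fold lower with CB (1.40 to 1.47) and 1.37-fold lower with S1650b (1.34 to 1.40). Once both trends were removed, the summed fold was 0.738 for CB and 0.939 for S1650b. The CB difference thus kept most of its size, while the S1650b difference came close to 1. Of the 13 genes, 8 had no count in any library. The 5 that were tested were MT2A, MT1E, MT1X, MT1F and MT1L, a transcribed pseudogene.

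**Figure D1:**
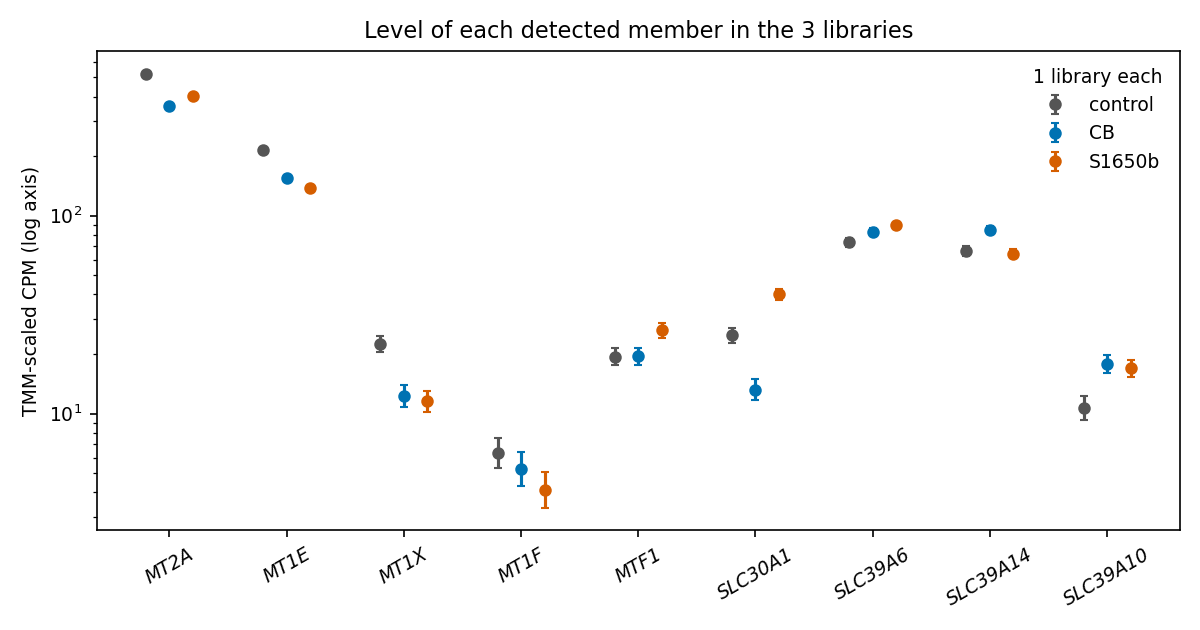
Level of each of the 9 detected members in TMM-scaled CPM (log axis). Each point is 1 library and bars are exact 95% Poisson intervals for counting error. MT2A, MT1E, MT1X and MT1F were highest in the control library, and SLC30A1 was lowest in CB and highest in S1650b.

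MT2A (ENSG00000125148, chromosome 16, 56608199 to 56609497, plus strand, GRCh38) was the most abundant member. It had 10208 counts in control, 7224 in CB and 8987 in S1650b, or 518.9, 359.4 and 402.3 scaled CPM. The CB library was thus the lowest and the control the highest, with intervals that did not overlap. MT2A was 1.44-fold lower with CB (1.40 to 1.49) and 1.29-fold lower with S1650b (1.25 to 1.33), and neither reached the 1.5-fold rule. With length and GC trends removed, MT2A in S1650b had a fold of 1.00 (0.973 to 1.03), so its direction there rests on those trends.

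MT1E (ENSG00000169715, chromosome 16, 56625475 to 56627112, plus strand) came second in abundance. Its counts were 4234 in control, 3110 in CB and 3081 in S1650b, or 215.2, 154.7 and 137.9 scaled CPM. Both particle libraries lay below the control. MT1E was 1.39-fold lower with CB (1.33 to 1.46) and 1.56-fold lower with S1650b (1.49 to 1.64). The S1650b difference was 1.22-fold with both trends removed and had a fold of 0.736 with total count scaling, both short of the rule.

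MT1X (ENSG00000187193, chromosome 16, 56682424 to 56684196, plus strand) was the only metallothionein past the size rule in both particle libraries. It had 443 counts in control, 247 in CB and 258 in S1650b, or 22.5, 12.3 and 11.5 scaled CPM. The 2 particle libraries were close to each other and both lay below the control. MT1X was 1.83-fold lower with CB (1.57 to 2.15) and 1.95-fold lower with S1650b (1.67 to 2.28). With both trends removed it was still 1.77-fold and 1.52-fold lower. Exons of a neighbouring gene on the same strand, AC026461.1, overlap 18.1% of the exon bases of MT1X, so a part of its counts may be uncertain.

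MT1F (ENSG00000198417, chromosome 16, 56657694 to 56660698, plus strand) was rare, with 125 counts in control, 106 in CB and 92 in S1650b, or 6.35, 5.27 and 4.12 scaled CPM. Its CB interval included 1 (fold 0.830, 0.635 to 1.08), so no difference could be seen at these counts. With S1650b it was 1.54-fold lower (1.17 to 2.04), but its fold was 0.745 with total count scaling and 0.670 with a filter of 5 CPM, both short of the rule, and with both trends removed the interval reached from 0.670 to 1.17. MT1L, the pseudogene, had 45, 40 and 54 counts, and both of its intervals against control included 1.

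MT1G (ENSG00000125144, chromosome 16, 56666731 to 56668065, minus strand) had 0 counts in each of the 3 libraries. A count of 0 allows up to 3 counts, or 0.152, 0.149 and 0.134 scaled CPM. MT1A, MT1B, MT1H, MT1M, MT1HL1, MT3 and MT4 also had 0 counts in all 3 libraries. Metallothionein genes are near copies of each other, and reads that match several of them may have been left out or split, which the sources used here do not state. Of all stretches of 50 bases in the annotated transcripts of a gene, the share also found in another gene was 16.5% for MT1G, 18.3% for MT1X, 7.10% for MT1E, 3.02% for MT2A and 1.22% for MT1F. SLC30A1, SLC39A6 and SLC39A10 shared none.

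Within a library, the mix of metallothioneins does not depend on how libraries are scaled. MT2A made up 67.8% of metallothionein counts in the control (67.1 to 68.6, exact binomial interval), 67.3% in CB (66.4 to 68.2) and 72.1% in S1650b (71.3 to 72.8). MT1E made up 28.1% in the control and 24.7% in S1650b, and its interval in CB was 28.1 to 29.9%. MT1X made up 2.94% in the control (2.68 to 3.23), 2.30% in CB (2.03 to 2.60) and 2.07% in S1650b (1.83 to 2.33). The share of MT1X was therefore lower in both particle libraries than in the control, and the share of MT2A was larger in S1650b than in the other 2. Relative to MT2A, MT1X was 1.27-fold lower with CB (1.08 to 1.49) and 1.51-fold lower with S1650b (1.29 to 1.77). MT1E kept its ratio to MT2A in CB within counting error (ratio of ratios 1.04, 0.982 to 1.10) and was 1.21-fold lower relative to MT2A in S1650b (1.15 to 1.28). These 3 genes are alike in length and GC content, at 1052 to 1773 exon bases and 53.5 to 53.9% GC.

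MTF1 acts through a short DNA core that can be read in the promoter sequences. The core was searched as TGCACNC and TGCGCNC, on both strands, in the 250 bases before the RefSeq transcription start (GRCh38.p14). Of 35116 promoters, 24.8% held at least 1 match. Promoter entries were at hand for 6 of the 10 members. MT2A had 7 matches, a number reached by 0.0313% of promoters, and MT1X had 4, reached by 0.370%. SLC30A1 and SLC39A6 had 1 match each, and MTF1 and both entries of SLC39A10 had none. These are matches of letters in a GC-rich window (73.2% GC in MT2A and 70.0% in MT1X), not measured binding. MTF1 binding is not analysed here.

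The 7 matches of MT2A are shown with up to 5 flanking bases on each side because this gene carries most of the metallothionein counts. Capitals mark the core. A core on the opposite strand appears as its reverse complement. Annotated MT2A exon sequence covers this window in GENCODE 29, so no longer stretch is printed.
MT2A first base 246 before the start (chr16:56608334-56608349): ccgcTGCACCCagccc
MT2A first base 168 before the start (chr16:56608411-56608427): ggcccGTGTGCAgagcc
MT2A first base 153 before the start (chr16:56608426-56608442): ccgggTGCGCCCggccc
MT2A first base 139 before the start (chr16:56608440-56608456): cccagTGCGCGCggccg
MT2A first base 88 before the start (chr16:56608491-56608507): ggggcGTGTGCAggcag
MT2A first base 54 before the start (chr16:56608525-56608541): gctttTGCACTCgtccc
MT2A first base 8 before the start (chr16:56608571-56608587): cgcgcTGCACTCcacca

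The upstream sequences of MT1X (chr16:56682220-56682423, plus strand) and SLC30A1 (chr1:211579162-211579411, minus strand) are shown because these 2 genes were lower together with CB and parted with S1650b. Each is written 5′ to 3′ along its gene, with the core in capitals. The MT1X stretch ends where its first annotated exon begins in GENCODE 29. The SLC30A1 stretch ends at the RefSeq start, which lies upstream of the GENCODE 29 start of that gene.
MT1X: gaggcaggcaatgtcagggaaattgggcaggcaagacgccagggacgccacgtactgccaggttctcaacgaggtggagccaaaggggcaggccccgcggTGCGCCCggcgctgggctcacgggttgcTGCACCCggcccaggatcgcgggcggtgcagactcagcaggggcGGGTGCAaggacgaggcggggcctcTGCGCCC
SLC30A1: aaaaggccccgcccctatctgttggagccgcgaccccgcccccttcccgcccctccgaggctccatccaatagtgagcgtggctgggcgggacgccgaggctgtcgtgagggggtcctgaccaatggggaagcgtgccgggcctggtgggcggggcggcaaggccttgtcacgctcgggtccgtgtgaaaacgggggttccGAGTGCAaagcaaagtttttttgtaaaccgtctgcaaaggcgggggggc

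**Figure D2:**
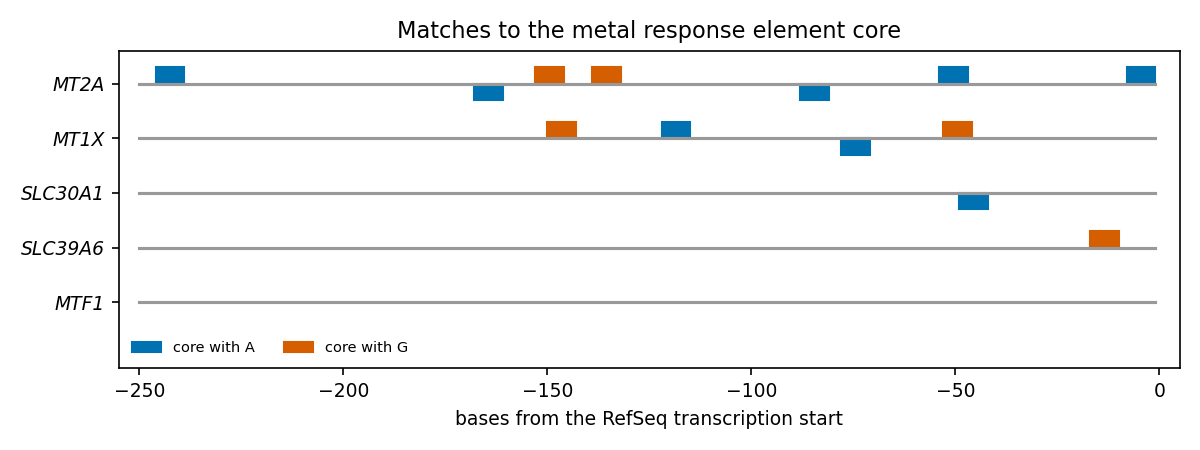
Positions of matches to the metal response element core in the 250 bases before the RefSeq start of 5 members (axis: bases from the start). Boxes above the line are on the gene's strand and boxes below on the opposite strand; MT2A has 7 boxes, MT1X 4, SLC30A1 and SLC39A6 1 each and MTF1 none.

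MTF1 itself (ENSG00000188786, chromosome 1, 37809567 to 37859620, minus strand) had 382 counts in control, 393 in CB and 588 in S1650b, or 19.4, 19.5 and 26.3 scaled CPM. The interval of CB against control included 1 (fold 1.01, 0.872 to 1.16). The fold in S1650b was 1.36 (1.19 to 1.55), short of the rule, and 1.09 (0.959 to 1.25) with both trends removed, but 1.56, past the rule, with total count scaling. RNA level does not measure MTF1 activity, which depends on zinc binding and entry into the nucleus.

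SLC30A1 (ENSG00000170385, chromosome 1, 211571568 to 211578742, minus strand), the plasma membrane zinc exporter, had the largest fold of the 9 members between the particles. Its counts were 490 in control, 266 in CB and 894 in S1650b, or 24.9, 13.2 and 40.0 scaled CPM. The CB library lay below the control and the S1650b library above it, and no 2 intervals overlapped. SLC30A1 was 1.88-fold lower with CB (1.62 to 2.19) and 1.61-fold higher with S1650b (1.44 to 1.80). Against CB, S1650b was 3.02-fold higher (2.63 to 3.48). SLC30A1 is poor in GC (38.0%), and with both trends removed its fold in S1650b against control was 1.11 (0.992 to 1.24), while the CB fold was 0.512 (0.439 to 0.595) and S1650b against CB remained 2.13-fold (1.86 to 2.45). The lower level with CB and the gap between the particles thus held, and the higher level with S1650b did not reach the rule.

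With CB, the folds of SLC30A1 (0.531) and MT1X (0.546) had overlapping intervals. Relative to MT2A, SLC30A1 was 1.30-fold lower with CB (1.12 to 1.52) and 2.07-fold higher with S1650b (1.85 to 2.33). The second ratio compares a GC-poor gene with a shorter gene richer in GC, so the trends above enter it in full. With both trends removed, the S1650b folds of SLC30A1 and MT2A were 1.11 and 1.00.

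Of the importers, SLC39A10 (ENSG00000196950, chromosome 2, 195575977 to 195737702, plus strand) had 211 counts in control, 357 in CB and 379 in S1650b, or 10.7, 17.8 and 17.0 scaled CPM. Both particle libraries lay above the control and their own intervals overlapped. SLC39A10 was 1.66-fold higher with CB (1.39 to 1.97) and 1.58-fold higher with S1650b (1.33 to 1.88). With both trends removed the CB fold was 1.61 (1.36 to 1.92) and the S1650b fold 1.02 (0.863 to 1.22). The CB library therefore combined lower MT1X and SLC30A1 with higher SLC39A10, whatever trend was removed. Relative to SLC30A1, SLC39A10 was 3.11-fold higher with CB (2.47 to 3.93) and at a ratio of 0.985 (0.801 to 1.21) with S1650b. The 2 genes are alike in GC content, at 38.0% and 37.6%.

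SLC39A6 (ENSG00000141424, chromosome 18, 36108532 to 36129385, minus strand), which pairs with SLC39A10 in the plasma membrane, had 1448, 1661 and 1998 counts in control, CB and S1650b, or 73.6, 82.6 and 89.4 scaled CPM. Its folds were 1.12 with CB (1.05 to 1.21) and 1.22 with S1650b (1.14 to 1.30), both short of the rule. The S1650b fold was 1.00 (0.937 to 1.07) with both trends removed and 0.925 with the GC trend alone removed. SLC39A14 (ENSG00000104635, chromosome 8, 22367249 to 22434129, plus strand), an importer of zinc, iron and manganese, had 1303, 1701 and 1438 counts, or 66.2, 84.6 and 64.4 scaled CPM. It was highest in CB, with a fold of 1.28 (1.19 to 1.37), while S1650b lay within counting error of the control (0.972, 0.901 to 1.05). That S1650b fold was 0.852 with both trends removed and between 1.01 and 1.12 with upper quartile or total count scaling or a filter of 5 CPM.

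**Figure D3:**
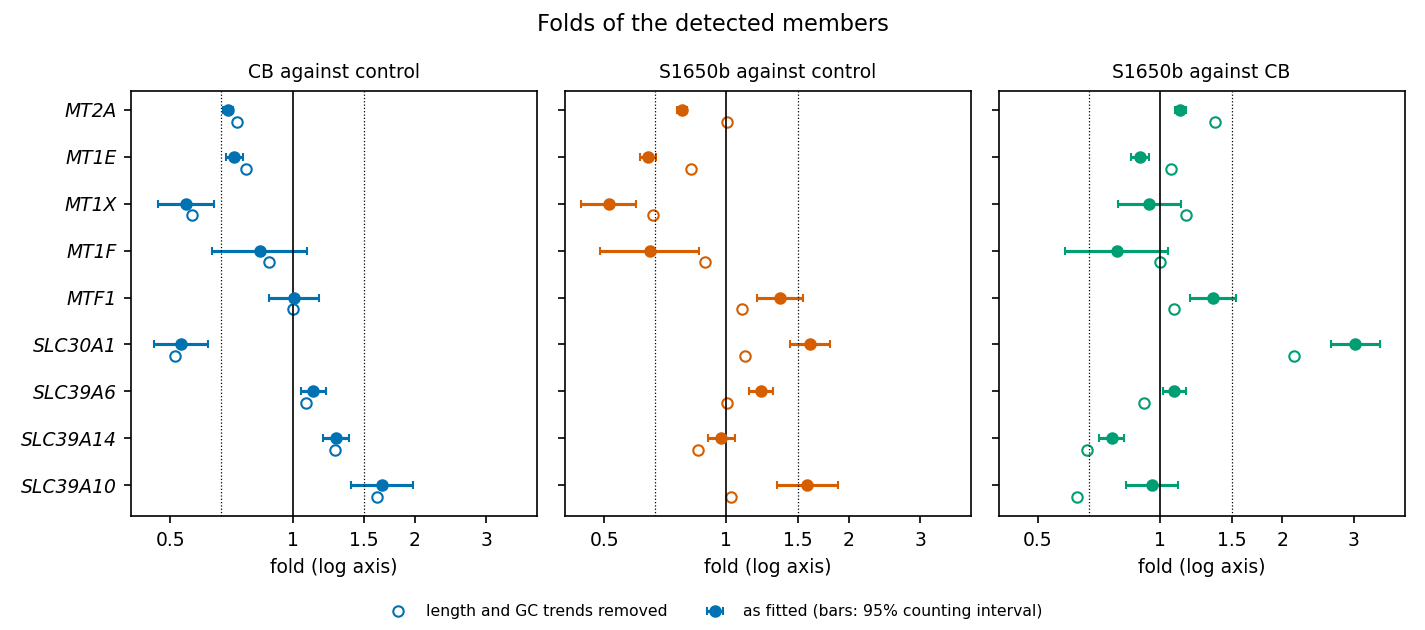
Folds of the 9 detected members in the 3 comparisons (log axis), as fitted with exact 95% counting intervals (filled) and with length and GC trends removed (open). Dotted lines mark 1.5-fold in either direction. Filled and open points nearly coincide for CB against control; for S1650b against control the open points of SLC30A1 and SLC39A10 lie at 1.11 and 1.02.

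**Figure D4:**
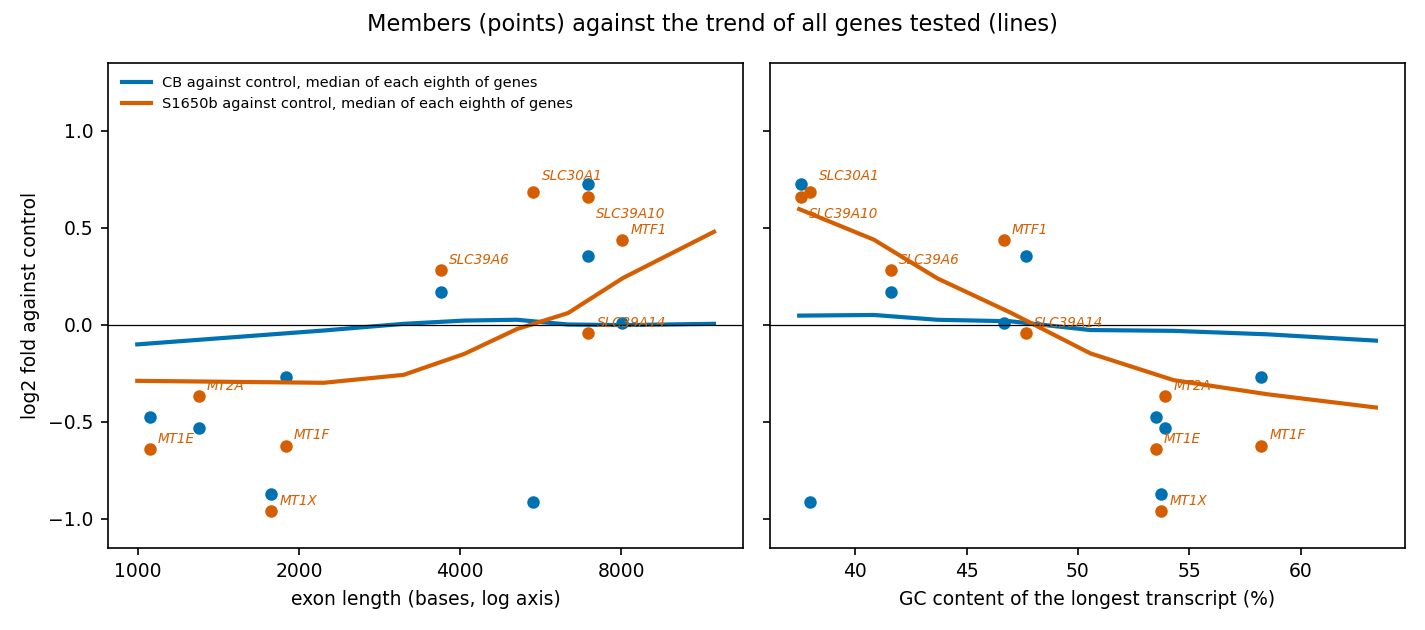
Log2 fold against control of each member (points) by exon length and by GC content, with the median of each eighth of all genes tested (lines), for CB (blue) and S1650b (orange). The orange line falls from 0.60 to −0.43 with GC content; the orange points of SLC30A1 and SLC39A10 lie near it in that panel, and MT1X lies below both lines in both panels.

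Compared per length within each library, by the deposited FPKM, MT2A stood first and MT1E second in all 3 libraries, at 396.6 and 203.1 in the control, 288.7 and 153.5 in CB, and 306.9 and 129.9 in S1650b. SLC39A6 followed in each, at 19.8, 23.4 and 24.1 FPKM. MT1X (12.6 FPKM) stood above SLC39A14 (9.47) in the control, but below it in CB (7.23 against 12.7) and in S1650b (6.45 against 9.19). SLC30A1 came after these in the control at 4.52 FPKM, above MT1F at 3.34, MTF1 at 2.40 and SLC39A10 at 1.54. In CB it was last, at 2.52 FPKM, but the counting intervals of MT1F (2.91), SLC39A10 (2.68), MTF1 (2.54) and SLC30A1 overlapped, so these 4 were not ordered. In S1650b it stood at 7.24 FPKM, with an interval overlapping that of MT1X, and MTF1 (3.25), SLC39A10 (2.43) and MT1F (2.16) followed, the last 2 with overlapping intervals. MT2A was 31.5 times the level of MT1X per length in the control, 39.9 times in CB and 47.5 times in S1650b.

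Among all zinc exporters of the SLC30 family with TMEM163, 6 of 11 listed genes were tested. With CB, 1 was lower (SLC30A1) and 0 higher, beside 10.7% and 4.70% of all genes tested, with a median log2 fold of 0.033. With S1650b, 5 were higher and 0 lower, beside 22.0% and 19.4% of all genes tested, and the median of 0.70 was 0.17 with both trends removed. SLC30A9, which serves mitochondria, had 394 counts in control, 393 in CB and 873 in S1650b and was 1.95-fold higher with S1650b (1.73 to 2.20). SLC30A4, a transporter of vesicles, had 40, 31 and 98 counts and was 2.16-fold higher (1.48 to 3.20), and SLC30A6, which works in the secretory pathway with SLC30A5, was 1.65-fold higher (1.47 to 1.87). With both trends removed these 3 had folds of 1.27, 1.38 and 1.14. SLC30A7 was also counted as higher with S1650b (1.56-fold), and its fold was 0.932 with the trends removed. SLC30A1 was therefore the one exporter of the 6 that passed the rule with CB.

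Among the 14 zinc importers of the SLC39 family, 11 were tested. With CB, 1 was higher (SLC39A10) and 1 lower (SLC39A2), beside 4.70% and 10.7% of all genes tested, with a median log2 fold of 0.17. With S1650b, 1 was higher (SLC39A10) and 2 lower (SLC39A2 and SLC39A3), with a median of −0.041, and these shares are not above the 22.0% and 19.4% over all genes. SLC39A2 was rare and had 78 counts in control, 22 in CB and 14 in S1650b. It was 3.62-fold lower with CB (fold 0.276, 0.164 to 0.448) and 6.33-fold lower with S1650b (fold 0.158, 0.0826 to 0.281), and these were 0.285 and 0.188 with the trends removed. SLC39A3 had 509, 648 and 374 counts, a fold of 1.25 with CB and was 1.55-fold lower with S1650b, or 1.25-fold with both trends removed, short of the rule. In S1650b against CB, 0 of the 11 importers were higher and 4 lower, beside 26.3% and 20.6% of all genes tested. SLC39A3 was 1.93-fold lower there, and SLC39A4, the importer mutated in the zinc deficiency disease acrodermatitis enteropathica, 1.81-fold lower. SLC39A7, which releases zinc from the endoplasmic reticulum, was 1.61-fold lower. SLC39A1, with 65 counts in CB and 48 in S1650b, just passed the rule. With both trends removed SLC39A3 and SLC39A4 were 1.62-fold and 1.59-fold lower, and SLC39A7 (1.28-fold lower) and SLC39A1 (1.19-fold lower) no longer passed.

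**Figure D5:**
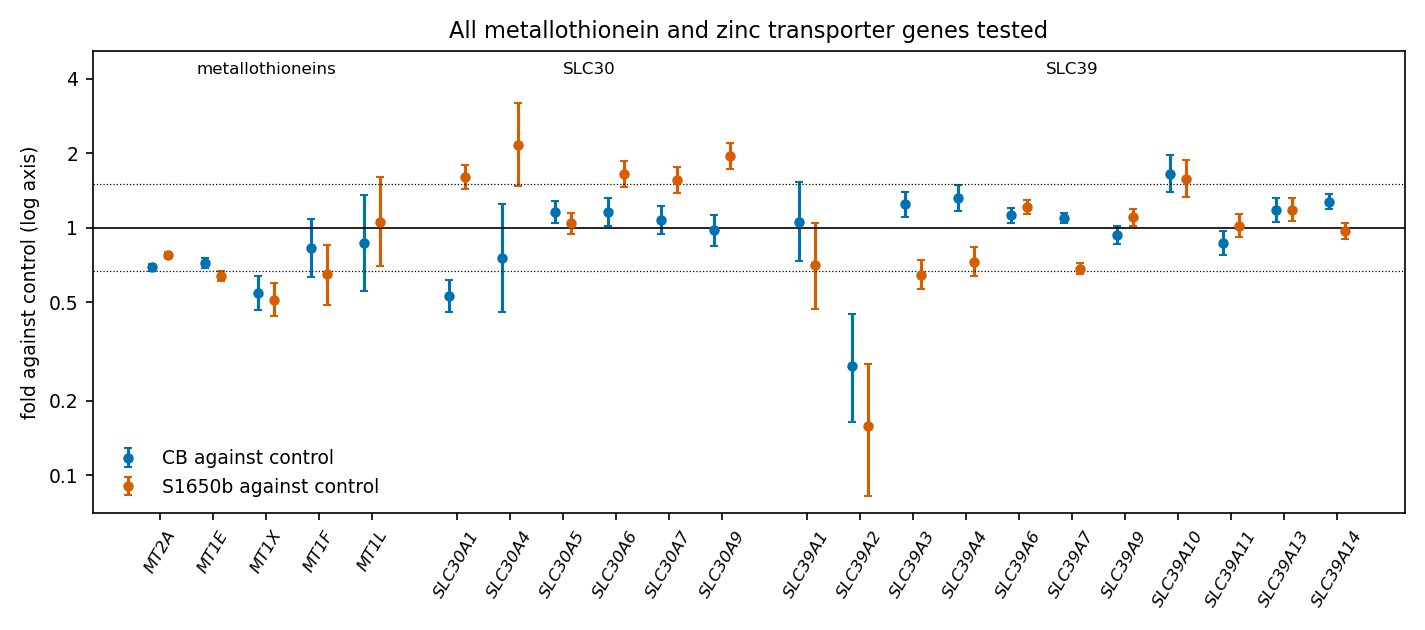
Folds against control (log axis) of all metallothionein and zinc transporter genes tested, for CB (blue) and S1650b (orange), with exact 95% counting intervals. Dotted lines mark 1.5-fold. SLC39A2 lies lowest in both, and SLC30A1 lies below 1 for CB and above 1 for S1650b.

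Genes of copper handling were counted because metallothioneins also bind copper. Of 16 tested of 18 listed, 1 was lower with CB (STEAP4, a metal reductase, 107 counts in the control and 56 in CB, 1.95-fold) and 0 higher, which is near the 10.7% and 4.70% over all genes tested. With S1650b, 2 were higher and 0 lower, beside 22.0% and 19.4% over all genes. ATP7A, the copper exporter, had 116 counts in control, 90 in CB and 505 in S1650b and was 3.83-fold higher with S1650b (3.13 to 4.73), or 2.17-fold with both trends removed. STEAP2 was 1.90-fold higher with S1650b, and 1.13-fold with the trends removed. In S1650b against CB, 2 of the 16 were higher and 3 lower, beside 26.3% and 20.6% of all genes tested. COX17 and SCO1, which deliver copper to cytochrome c oxidase, were 1.95-fold and 1.63-fold lower, or 2.15-fold and 2.33-fold with both trends removed. SOD1, with 2769 counts in CB and 1973 in S1650b, was the third lower gene. ATP7A and STEAP4 were 5.05-fold and 2.92-fold higher, or 2.89-fold and 1.66-fold with both trends removed.

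Of the zinc-binding S100 proteins, all 3 tested genes of 5 listed were lower in both particle libraries, where 10.7% (CB) and 19.4% (S1650b) of all genes were. S100A8 and S100A9, whose proteins join as calprotectin and hold zinc away from microbes, had 137 and 743 counts in control, 91 and 449 in CB, and 26 and 148 in S1650b. S100A9 was 1.69-fold lower with CB (fold 0.591, 0.525 to 0.666) and 5.70-fold lower with S1650b (fold 0.175, 0.146 to 0.210). S100A8 was 1.54-fold and 5.98-fold lower. S100A7 had 383, 148 and 281 counts, with folds of 0.378 with CB and 0.646 with S1650b. The S1650b folds of S100A8 and S100A9 were 0.214 and 0.233 with the trends removed, and that of S100A7 was 0.730, short of the rule. The CB fold of S100A8 was 0.695 with the trends removed, also short of it.

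Metallothionein genes are also known to respond to glucocorticoids and to metal and heat stress, so these genes were counted as well. Of 8 tested glucocorticoid-induced genes, CB had 1 higher (ERRFI1, an inhibitor of EGF receptor signalling, 1.81-fold) and 1 lower (KLF9, a transcription factor, 141 counts in control, 31 in CB and 170 in S1650b, 4.65-fold lower with CB), beside 4.70% and 10.7% of all genes tested. S1650b had 1 higher (ERRFI1, 1.52-fold) and 3 lower, of which TSC22D3, a glucocorticoid-induced regulator of transcription, was 2.08-fold lower, CEBPD 1.73-fold and PER1 1.52-fold, beside 22.0% and 19.4% of all genes. With both trends removed TSC22D3 was 1.84-fold lower and still passed the rule, while ERRFI1 (1.30-fold higher), CEBPD (1.27-fold lower) and PER1 (1.34-fold lower) did not. In S1650b against CB, 1 of the 8 was higher and 3 lower, beside 26.3% and 20.6% of all genes tested. KLF9 was 4.94-fold higher there, and TSC22D3, CEBPD and FKBP5 were 1.54-fold, 1.68-fold and 1.68-fold lower. With the trends removed these 3 were 1.38-fold, 1.32-fold and 2.72-fold lower, so that FKBP5 passed the rule and the other two did not. Of 12 metal and heat stress genes, 4 were higher with CB (HSPA6, SLC7A11, HSPH1 and GCLM) and 0 lower, beside 4.70% and 10.7% of all genes tested. With S1650b, 6 were higher (GCLC, GCLM, HSPA6, HSPH1, SLC7A11 and TXNRD1) and 1 lower (HSPB1), beside 22.0% and 19.4%. HSPB1 was 1.83-fold lower, or 1.31-fold with both trends removed and then short of the rule. GCLM was 2.12-fold higher, or 1.45-fold with both trends removed, also short of it. HSPA6 had 0 counts in control, 113 in CB and 8 in S1650b. It was tested only because it reached 1 CPM in CB, so its calls against control are no independent result. HSPH1, a co-chaperone, had 1032 counts in control, 1868 in CB and 2626 in S1650b, with folds of 1.77 and 2.24, the second of which was 1.41 with the trends removed. TXNRD1, a reductase of thioredoxin, had 6359, 7843 and 24646 counts and was 3.41-fold higher with S1650b, or 2.74-fold with both trends removed. Other genes of this list, HMOX1, HSPA1A, HSPA1B, DNAJB1 and BAG3, were neither higher nor lower against control with CB or with S1650b. HSPA1A was at 270.6, 323.5 and 256.9 scaled CPM in control, CB and S1650b, and HMOX1 at 0.915, 0.945 and 1.21. The counts therefore do not stand for each gene of the list.

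By distance between the 2 log2 folds against control, over 9451 genes with a mean of at least 10 CPM, the 5 genes nearest to the summed metallothioneins (−0.52 with CB and −0.45 with S1650b) were RPL28, EAPP, BSCL2, NUCB1 and TMEM80, at distances of 0.019 to 0.038. In all, 32 genes lay within 0.1. No trend was removed from these folds, and the summed S1650b fold was 0.730 as reported and 0.939 with both trends removed. The likeness thus includes the length and GC trends on its S1650b side. It rests on 3 libraries and describes them only.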

How the data were processed

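Per the labels' protocols, Trizol was used to extract total RNA, and a NEBNext Ultra kit for the libraries. The count table deposited by the authors holds whole-number counts per Ensembl gene, and the table of FPKM deposited by the authors holds counts per gene length. Counts divided by FPKM gave 1 length per gene in every library, up to a scale that was 0.959 (CB) and 1.15 (S1650b) times that of the control after division by total counts, so FPKM was not scaled by these totals. CASAVA 1.7 and the builds mm8 and mm9, which are of the mouse although the identifiers are human, are named in the submitters' processing notes. Aligner, counter and use of strand: not given in the sources used here. Depth was 20658247 (control), 20946139 (CB) and 20417744 (S1650b) counts. All 58735 identifiers occur in GENCODE 29, which gave positions (GRCh38), exon lengths and, from the longest transcript, GC content. Symbols came from a gene name table, and promoters from RefSeq (GRCh38.p14).

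Counts were filtered to the 14709 genes that reached 1 CPM somewhere and scaled by TMM (edgeR 4.0.16, R 4.3.3; factors 0.952, 0.960 and 1.09). Folds carry exact conditional binomial (Clopper-Pearson) 95% intervals, and 0.5 counts were added for log2. A single library per group allows no test. Trends were removed by lowess (span 0.3, statsmodels 0.14.6) centred on its median, so that the overall scale did not change. The calculation was tested on simulated data. Alternatives were other scalings (total counts, DESeq2 1.42.0 median of ratios, upper quartile, protein-coding genes only), FPKM with 0.1 added and no interval, no filter or 5 CPM, 5 counts added, a 2-fold rule, equal depth, and trend removal. Removal of both trends from the summed metallothioneins was chosen after seeing the data. Named genes were all members, every metallothionein with at least 10 counts in 1 library, up to 4 genes past the rule per other list and comparison, by the interval end nearest to 1, and the 5 nearest genes by folds. The text names a part of those from the lists, and SLC30A7 was named after its value was seen. Metallothioneins at 0 are named to account for their list. The members and lists were chosen with earlier results of these data known. Python 3.11.15 with scipy 1.17.1 was used.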

Additional observations from a re-analysis of the deposited data

How the results depend on the processing

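Under the CB comparison, the counts of members higher (1) and lower (2) held under 12 of 13 alternatives, with SLC39A10, MT1X and SLC30A1 called each time, and both became 0 under a 2-fold rule. For S1650b against control, members higher went from 2 to 3 with total counts (MTF1 added), to 1 with the length trend removed and to 0 with the GC trend removed, with both removed or under a 2-fold rule. Members lower went from 3 to 1 with total count or upper quartile scaling and with any trend removed, where MT1X was the member called, to 2 with a filter of 5 CPM (MT1F lost) and to 0 under a 2-fold rule. For S1650b against CB, members higher went from 1 to 2 with total counts (MTF1 added), and members lower from 0 to 1 with the length trend removed (SLC39A14) and to 2 with both removed (SLC39A10 added). SLC30A1 passed the rule in that comparison under all 13. No fold of a member that passed the rule as reported turned its direction, but that of SLC39A10 in S1650b against CB, which did not pass as reported, ranged from 0.626 with both trends removed to 1.09 with total counts. Of 345 recomputed folds of members and of the metallothionein sum, 263 stayed within the counting interval and 82 moved outside it. Total count scaling shifted all S1650b log2 folds by 0.20 against control and by 0.19 against CB. It took the share of higher genes among all called from 53.1% to 71.2% and from 56.1% to 70.4%. FPKM, called without a counting interval, took that share in CB against control from 30.6% to 40.9%. Across alternatives, the fold of MT1X ranged from 0.531 to 0.577 with CB and from 0.496 to 0.659 with S1650b, and that of SLC30A1 from 0.512 to 0.568 and from 1.10 to 1.85. The cause of the trends was not tested. Counting error is wide for genes with few counts, such as SLC39A2, MT1L and MT1F. No paired analysis was possible because each group holds 1 library.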
